A study of Homo sapiens with 43 samples.

Results

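The genes for the classical HLA class I heavy chains HLA-B and HLA-C, the nonclassical heavy chains HLA-E and HLA-F, and the light chain beta-2-microglobulin (B2M) were followed through 2 cancer cell lines, their derivatives and 2 growth media. These 5 genes were taken by symbol (written HLA.B, HLA.C, HLA.E, HLA.F and B2M there) from the 4 deposited expression tables, which hold 25379 genes in all, 18085 in those of the lung line and 25369 in those of the breast line. The rule used symbols and no measured value, and all 5 passed the filter on low values in every comparison. Total RNA was sequenced from H2087 (lung cancer) and HCC1954 (breast cancer), both established cell lines. Their latency-competent cell derivatives (LCC) had each been taken from an organ without a bioluminescence signal, a mouse organ in the case of HCC1954. Parental and LCC cells of each line were grown below confluence in culture for 48 h, either with mitogens in plenty (mitogen-rich medium, MRM) or with few (mitogen-low medium, MLM). For H2087, 2 parental and 6 LCC libraries per medium were analysed, and each of the 6 is another derivative (LCC1 to LCC6). For HCC1954 there were 3 parental and 4 LCC libraries per medium, the latter being 2 of LCC1 and 2 of LCC2. Nothing in the labels says that libraries of a group were separate cultures, so all p-values rest on the spread among these libraries, which may be technical. In the H2087 LCC groups that spread also holds the differences between derivatives. Each fit pools the spread of its groups, so the errors of parental comparisons in H2087 include it.

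HLA class I molecules display peptides from inside the cell to CD8 T cells. A heavy chain folds with B2M in the endoplasmic reticulum, where the TAP1 and TAP2 transporter, the tapasin protein (gene TAPBP) and chaperones load the peptide. Class I molecules also restrain natural killer cells: HLA-E presents leader peptides of other class I chains to the inhibitory receptor CD94/NKG2A, and HLA-F is bound by other killer cell receptors. Transcription of the classical genes and B2M is known to respond to interferons and to NF-kB, and to the class I transactivator NLRC5, which acts with a complex of RFX, CREB/ATF and NF-Y factors on conserved promoter elements.

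Depth and medium moved together. The H2087 libraries held 44649263 to 55653300 reads in MLM and 12131848 to 20847987 in MRM, and the HCC1954 libraries held 24852118 to 28119596 in MLM and 28799407 to 44705518 in MRM. The least abundant member, HLA-F, still had 183 or more normalized counts in every library. The lung transcription factor NKX2-1 was at 2319 to 6892 normalized counts in the H2087 libraries, and ERBB2, which is amplified in HCC1954, was at 119990 to 307480 in the HCC1954 libraries. The leukocyte marker PTPRC was at 0 to 3.91 normalized counts in H2087 and at 3.83 to 24.6 in HCC1954, and CD3E was at 5.86 or less in every library. A pair of HCC1954 libraries, parental 3 of MLM and LCC1 2 of MRM, had stood apart from their groups in earlier work on these tables. Member differences that use them are in many cases also given without them. HLA genes are highly polymorphic and near-identical to each other and to HLA pseudogenes. How reads that match several loci were counted is not given in the sources used here, so the split of reads between HLA-B, HLA-C, HLA-F and the pseudogenes is uncertain. B2M is a single gene outside that family.

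The promoters of the members are shown because HLA-B and HLA-F passed the test between LCC and parental HCC1954 cells below while HLA-C and B2M did not. RefSeq promoters of assembly GRCh38.p14 matched 4 of the 5 members. The 250 bases before the transcription start were searched on both strands for GGGNNTTCC (a kappa B core), TTTCNNTT (the core of an interferon response element), TGACG (a cAMP response element core, bound by CREB/ATF factors) and ATTGG (an inverted CCAAT box, bound by NF-Y). The printed stretches of 155 bases run from 195 to 41 bases before the start. They are chr6:31357220-31357374 (minus strand) for HLA-B, chr6:31272133-31272287 (minus strand) for HLA-C, chr6:29723239-29723393 (plus strand) for HLA-F and chr15:44711322-44711476 (plus strand) for B2M. Capitals mark the matches, and overlapping matches run together.
HLA-B: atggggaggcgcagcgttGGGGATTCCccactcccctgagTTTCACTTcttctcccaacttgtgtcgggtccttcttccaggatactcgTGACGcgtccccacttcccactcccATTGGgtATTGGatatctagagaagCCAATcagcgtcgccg
HLA-C: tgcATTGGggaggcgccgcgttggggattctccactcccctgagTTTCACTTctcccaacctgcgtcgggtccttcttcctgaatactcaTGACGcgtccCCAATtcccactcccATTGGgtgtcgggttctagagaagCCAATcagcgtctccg
HLA-F: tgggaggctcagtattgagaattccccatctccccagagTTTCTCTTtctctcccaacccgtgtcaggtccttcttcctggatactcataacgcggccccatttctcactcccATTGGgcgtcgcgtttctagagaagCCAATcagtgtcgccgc
B2M: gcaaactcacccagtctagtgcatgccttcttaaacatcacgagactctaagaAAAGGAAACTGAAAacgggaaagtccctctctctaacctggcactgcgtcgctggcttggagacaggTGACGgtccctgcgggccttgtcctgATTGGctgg

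The heavy chain promoters share their layout: a TTTCNNTT match lay 144 to 156 bases before the start in HLA-B, HLA-C and HLA-F, and at least a pair of ATTGG matches lay nearer to the start in each. The exact letters GGGNNTTCC were found in HLA-B alone among these 4 windows, and 5.77% of the 34788 RefSeq promoters hold them in the 250 bases searched. Looser kappa B-like letters, such as gggattctcc in HLA-C and ggaaagtccc in B2M, were not counted. HLA-B is thus not shown to be the only member with a kappa B sequence. TGACG was found in HLA-B, HLA-C and B2M but not in HLA-F, and 21.2% of all promoters hold it. The B2M window held an overlapping pair of TTTCNNTT matches on the opposite strand, a match that 20.3% of all promoters hold. ATTGG was in all 4 windows and in 32.0% of all promoters. These motifs were chosen after the sequences and the values were seen. A match is a description of letters, not a bound site, and a missing match says only that those letters are not in the window.

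For the 5 members, the largest differences in H2087 were between media. All 5 members were lower in MLM than in MRM in the parental cells and in the LCC cells, by 1.75-fold to 3.87-fold for the heavy chains and by 1.71-fold and 1.88-fold for B2M. The medium comparison asks how cells respond to the withdrawal of mitogens. Each of the 5 passed the test as lower in both cell types (limma on log2 of the deposited value plus 1, Benjamini-Hochberg adjusted p under 0.05 over all genes tested), where 17.9% of 12535 tested genes were called lower in parental cells and 18.9% in LCC cells. The median log2 difference of the 5 was -1.62 in parental and -1.16 in LCC cells, against 0.04 and 0.01 over all genes tested. In bulk RNA, fewer cells with a transcript and less of it per cell cannot be told apart.

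HLA-B, a classical heavy chain, was at 17995 and 16174 normalized counts in parental MRM libraries and at 5130 and 5213 in parental MLM libraries. In LCC cells it was at 8882 to 20776 (median 11111) in MRM and at 2651 to 7004 (median 4684) in MLM. No MLM library reached any MRM library in either cell type. HLA-B fell 3.30-fold in parental cells (-1.72 ± 0.40, limma adjusted p = 0.00364) and 2.59-fold in LCC cells (-1.37 ± 0.23, limma adjusted p = 0.00032).

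HLA-C, a classical chain and the main class I ligand of killer cell immunoglobulin-like receptors, was at 12870 and 12554 normalized counts in parental MRM libraries and at 3175 and 3397 in parental MLM libraries. Its LCC libraries were at 8685 to 16390 (median 9272) in MRM and at 3020 to 4394 (median 3820) in MLM. The groups did not overlap for HLA-C either. It fell 3.87-fold in parental cells (-1.95 ± 0.24, limma adjusted p = 2.94e-05) and 2.72-fold in LCC cells (-1.44 ± 0.14, limma adjusted p = 3.01e-06).

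Of the nonclassical chains, HLA-E was at 5065 and 4724 normalized counts in parental MRM libraries and at 2119 and 2270 in parental MLM libraries, and at 3329 to 6377 (median 3822) and 1820 to 3189 (median 2337) in the LCC libraries of MRM and MLM. Its lowest MRM library, LCC1, was close to its highest MLM library, LCC2, without overlap. HLA-E fell 2.23-fold in parental cells (-1.16 ± 0.26, limma adjusted p = 0.0033) and 1.75-fold in LCC cells (-0.81 ± 0.15, limma adjusted p = 0.000804). HLA-F was at 968 and 907 in parental MRM libraries and at 305 and 302 in parental MLM libraries, and at 464 to 1293 (median 678) and 183 to 425 (median 340) in LCC libraries. It fell 3.08-fold (-1.62 ± 0.45, limma adjusted p = 0.0104) and 2.23-fold (-1.16 ± 0.26, limma adjusted p = 0.00268).

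B2M, the chain that every class I molecule needs, was at 53078 and 48830 normalized counts in parental MRM libraries and at 29798 and 29878 in parental MLM libraries. In LCC cells it was at 62203 to 96301 (median 67726) in MRM and at 26089 to 42922 (median 39668) in MLM. The groups did not overlap, and the log2 differences were smaller in size than those of HLA-B and HLA-C. B2M fell 1.71-fold in parental cells (-0.77 ± 0.22, limma adjusted p = 0.0126) and 1.88-fold in LCC cells (-0.91 ± 0.13, limma adjusted p = 6.53e-05).

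**Figure D1:**
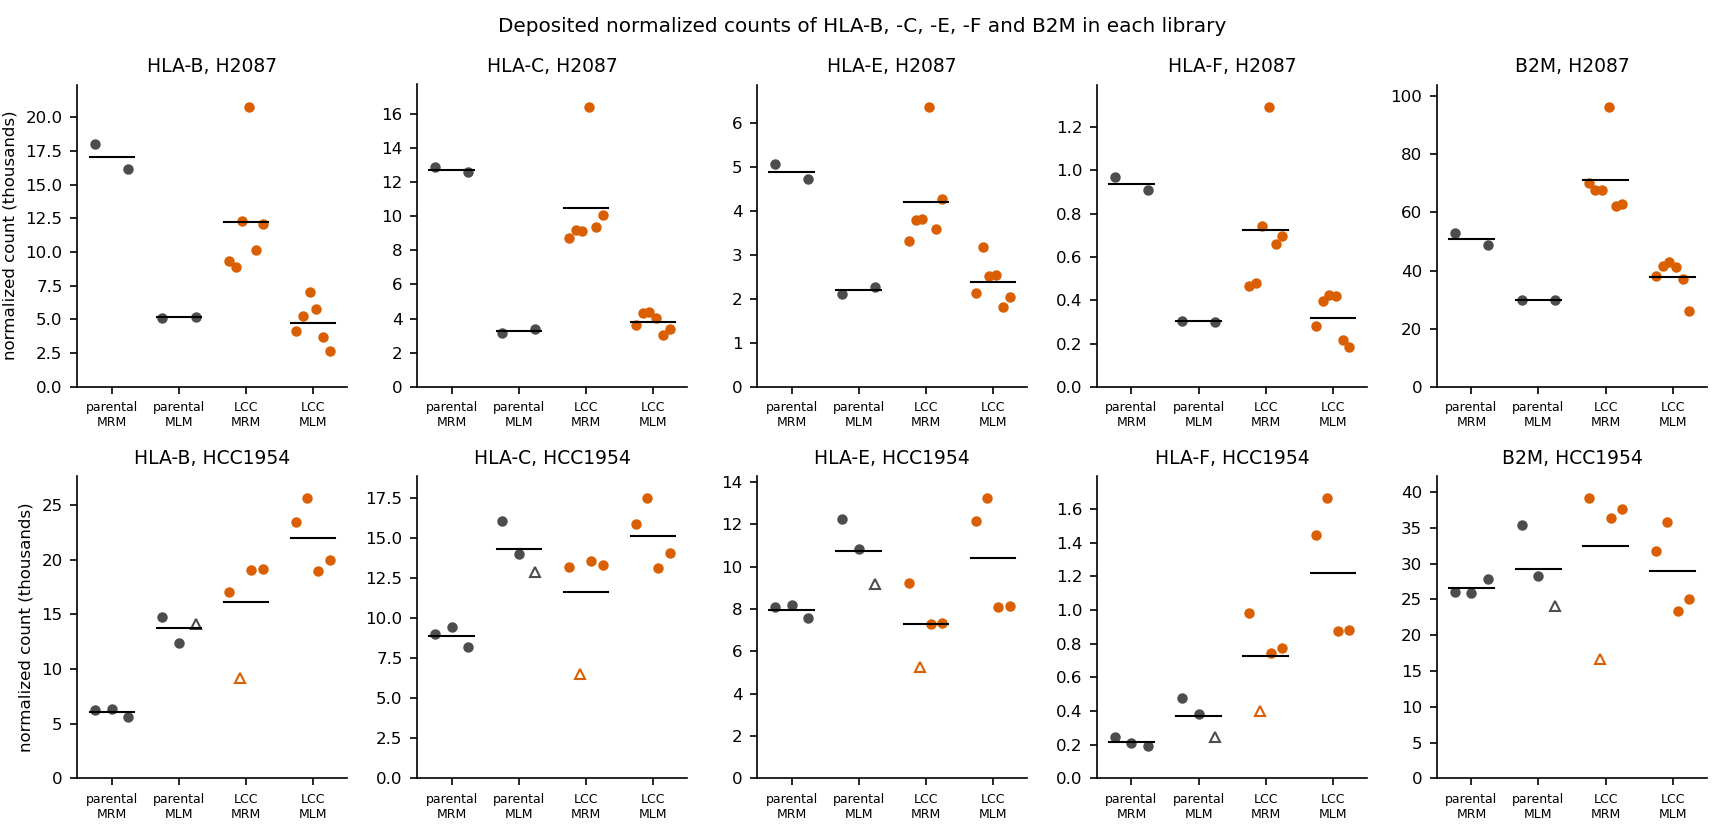
Deposited normalized count (linear axes from 0) of each class I gene and B2M in each library, for H2087 (top) and HCC1954 (bottom), by cell type and medium. Points are libraries, lines are group means, and open triangles are HCC1954 parental 3 of MLM and LCC1 2 of MRM. In H2087 every MLM library lay below every MRM library of the same cell type for all 5 genes, and in HCC1954 HLA-F was at 401 or more in every LCC library of MRM and at 246 or less in the parental libraries of MRM.

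The fall was present in each derivative. For all 5 members, each of the 6 derivatives had a lower value in MLM than in MRM. For HLA-C the difference ran from -2.03 on the log2 scale in LCC4 to -1.06 in LCC3. For HLA-B it ran from -2.19 in LCC6 to -0.77 in LCC2, and for HLA-F from -1.92 in LCC6 to -0.27 in LCC2. LCC2 also had the smallest step of HLA-E, at -0.26, beside -1.33 in LCC4. In parental cells HLA-B, HLA-C and HLA-E passed with any 1 library left out. HLA-F and B2M did not pass without parental 1 or parental 2 of MLM or parental 1 of MRM (limma adjusted p = 0.0518 to 0.0829, with the lone library assumed to vary like the other groups). With no overlap in either cell type, the members stood beside 41.2% of tested genes that were lower without overlap in parental cells and 9.35% in LCC cells.

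Genes that load peptides onto class I molecules were lower in MLM as well. Of the 15 tested genes of antigen processing and peptide loading, 8 were lower and 2 higher in H2087 parental cells (median log2 difference -0.70), and 8 were lower and 2 higher in LCC cells (median -0.49). The transporter subunits TAP1 (-0.89 ± 0.26 in parental and -0.87 ± 0.15 in LCC cells) and TAP2 (limma adjusted p = 0.00113 in parental cells, and -0.85 ± 0.11 in LCC cells) fell, as did TAPBP (-1.05 ± 0.15 and -0.66 ± 0.08). The chaperones calreticulin, CALR (-1.45 ± 0.14 and -0.96 ± 0.08), and HSPA5 (-2.53 ± 0.26 and -1.65 ± 0.15) fell too, and calnexin, CANX, fell in parental cells (-1.17 ± 0.15). In LCC libraries CANX was also lower, at 34126 to 45762 normalized counts in MLM and 58437 to 80817 in MRM. PSMB9, a subunit of the immunoproteasome, did not pass the test (0.05 ± 0.27 and 0.27 ± 0.16).

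Among the 18 known regulators of class I transcription, 3 were lower and 4 higher in parental cells, and 1 was lower and 7 higher in LCC cells. NLRC5 fell in both (-0.63 ± 0.20, limma adjusted p = 0.0231, and -0.41 ± 0.12, limma adjusted p = 0.0129). IRF1, an interferon-induced activator of class I promoters, rose in parental cells (0.78 ± 0.25, limma adjusted p = 0.024) and was at 0.14 ± 0.14 in LCC cells. Of 38 tested interferon stimulated genes, 3 were higher and 4 lower in parental cells (median 0.08), and 1 was higher and 5 lower in LCC cells (median 0.15). BST2 (-1.31 ± 0.19 and -0.75 ± 0.11), which tethers virus particles to the cell surface, and LGALS3BP (-1.16 ± 0.20 and -0.96 ± 0.11), a secreted galectin ligand, were among those that fell. IFI27 went the other way in parental cells, at 280 and 336 normalized counts in MLM and at 39.5 and 47.3 in MRM. So did IFI44L, at 200 and 208 in MLM and at 56.7 and 61.7 in MRM. Their LCC groups overlapped between the media. Of the receptors, IFNGR1, a chain of the interferon gamma receptor, fell in both (-1.19 ± 0.12 and -0.81 ± 0.07).

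Some other class I and class I-like genes were lower as well, 3 of 7 tested genes of that list in parental cells and 4 of 7 in LCC cells, and none was called higher. MR1, which presents vitamin B metabolites, fell in parental (-1.58 ± 0.21) and LCC cells (-0.91 ± 0.12), and MICA, a ligand of the activating receptor NKG2D, fell in both (-0.73 ± 0.17 and -0.46 ± 0.10). MICB, another NKG2D ligand, was not called, at 1192 and 1224 normalized counts in parental MLM libraries and at 945 and 962 in parental MRM libraries. HLA-G, a nonclassical class I gene, was not called either, at 1.06 ± 0.70 in parental cells, without overlap, and at -0.94 ± 0.40 in LCC cells (limma adjusted p = 0.253 and 0.083). Of 13 genes of class I trafficking and turnover, 5 were lower and 2 higher in parental cells, and 9 were lower in LCC cells. SEL1L, an adaptor of endoplasmic reticulum degradation, fell by 1.61 and by 0.81 on the log2 scale. The summed level of 12 leukocyte markers was 66.3 to 185 normalized counts in the MLM libraries and 107 to 561 in the MRM libraries, with 3 of the 12 at 0 in every H2087 library. Of 4 tested leukocyte markers, 1 was lower in parental cells and 3 in LCC cells, with median log2 differences of -1.16 and -1.24. The 10 fibroblast markers summed to 375 to 433 in parental MLM libraries and to 1101 to 1151 in parental MRM libraries, with 2 of 4 tested genes lower, and to 327 to 724 and 516 to 997 in LCC libraries, with 1 of 4 lower. Of 9 tested lung epithelial markers, 2 were lower in parental cells, where the median log2 difference was above zero (0.33). In LCC cells 5 of the 9 were lower, with a median of -1.63. The part of these lists in the class I differences was not tested.

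The members changed unequally, so the balance between heavy chains and B2M shifted. The summed counts of HLA-B, HLA-C, HLA-E and HLA-F per B2M count were 0.695 and 0.704 in parental MRM libraries and 0.360 and 0.374 in parental MLM libraries. In the LCC libraries the ratio was 0.384 ± 0.0589 (SD, n = 6) in MRM and 0.297 ± 0.0376 in MLM. The parental MRM libraries thus stood above all 6 LCC libraries of MRM, which reached 0.466 at most. The ratio sums counts of genes that differ in length, so it is not a ratio of molecules and only its change between groups can be read. The 5 genes together took 0.302% ± 0.0170 (SD, n = 2) of all reads in parental MRM libraries and 0.149% ± 0.000158 in parental MLM libraries. In LCC libraries the share was 0.323% ± 0.0613 (n = 6) and 0.172% ± 0.0312.

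**Figure D2:**
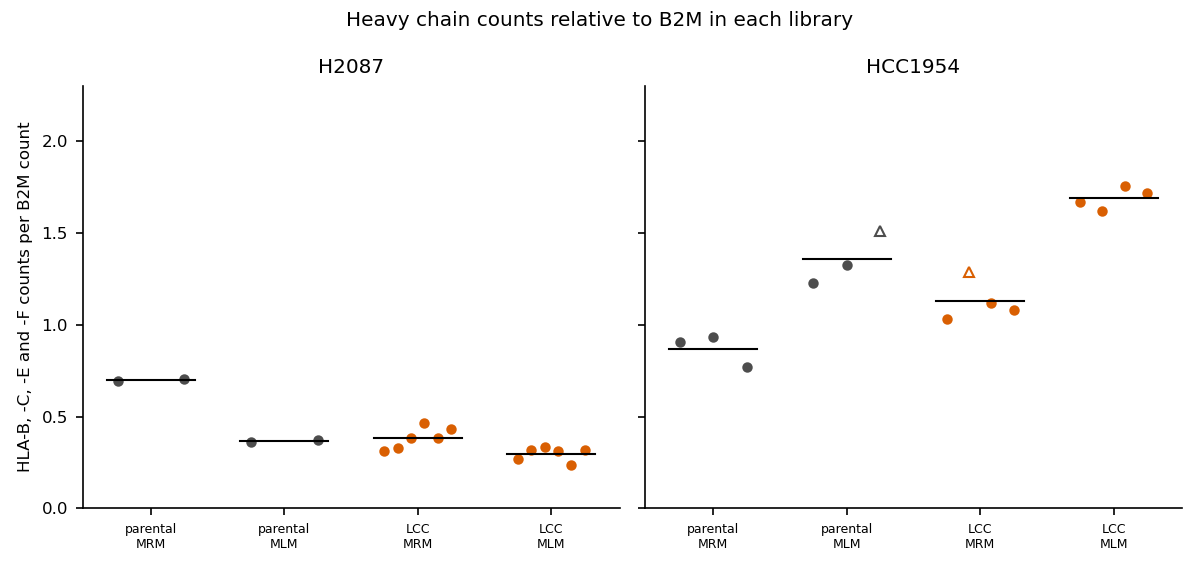
Summed normalized counts of HLA-B, HLA-C, HLA-E and HLA-F divided by the B2M count of the same library (vertical axis from 0), for H2087 (left) and HCC1954 (right). Points are libraries, lines are group means, and open triangles are HCC1954 parental 3 of MLM and LCC1 2 of MRM. In H2087 the parental MRM libraries are highest at 0.695 and 0.704, and in HCC1954 the LCC libraries of MLM are highest at 1.62 to 1.76.

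Between H2087 LCC and parental cells of the same medium, none of these members passed the limma test. In MLM none of the 5 members was called, where 13.7% of 12480 genes were called in either direction. B2M was at 0.32 ± 0.18 (limma adjusted p = 0.266), with LCC6, at 26089, below both parental libraries and the other 5 derivatives above them. Without LCC6 the B2M difference was 0.43 and was called (limma adjusted p = 0.013). The other differences were 0.19 ± 0.14 for HLA-C, 0.09 ± 0.19 for HLA-E, 0.00 ± 0.34 for HLA-F and -0.19 ± 0.32 for HLA-B, all with overlapping groups. At an unadjusted p under 0.05 limma counted 0 members, and edgeR and DESeq2 on reads recovered from the table called 0. The 95% interval of the HLA-B difference ran from -0.93 to 0.54 on the log2 scale.

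In MRM the heavy chains lay below zero and B2M above it, and again 0 of 5 were called, where 14.6% of 12495 genes were called. The log2 differences of LCC from parental cells were -0.54 ± 0.28 for HLA-B, -0.32 ± 0.22 for HLA-C, -0.25 ± 0.22 for HLA-E and -0.46 ± 0.34 for HLA-F. B2M was at 0.47 ± 0.17 (limma adjusted p = 0.103), and every LCC library was above both parental ones, as 19.5% of genes tested were in the same direction. At an unadjusted p under 0.05 limma counted 1 member, B2M, edgeR called 0 and DESeq2 called 1, B2M (DESeq2 adjusted p = 0.0294). The derivative LCC4 stood apart: it had the highest value of all 8 libraries for each of the 5 members, at 20776 for HLA-B beside 12313 for the next LCC library. Without LCC4, limma called 4 members: HLA-B (-0.71, adjusted p = 0.0157), HLA-C (-0.45, adjusted p = 0.00832) and HLA-E (-0.38, adjusted p = 0.0371) lower, and B2M (0.38, adjusted p = 0.0372) higher.

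The 15 genes of antigen processing had a median difference of -0.22 in MRM, where TAP1 (-0.26 ± 0.22), TAP2 (-0.42 ± 0.20) and TAPBP (-0.31 ± 0.14) did not pass. In MLM 1 of the 15 was higher and 1 lower. TAP2 was lower in MLM (-0.27 ± 0.07, limma adjusted p = 0.0446) and PDIA3, the disulfide isomerase ERp57, was higher (0.34 ± 0.07, limma adjusted p = 0.0194). Of the interferon stimulated genes, 1 of 38 was higher in MLM, and 2 were higher and 4 lower in MRM. IFNAR2, a chain of the receptor for type I interferons, was lower in LCC cells in both media (-1.01 ± 0.09 in MLM and -0.51 ± 0.11 in MRM). NLRC5 was at 0.09 ± 0.16 and -0.14 ± 0.16 and did not pass. HLA-G was at 117 and 92.2 normalized counts in parental MRM libraries and at 259 to 697 (median 379) in the LCC libraries. The groups did not overlap, and HLA-G was higher in LCC cells in MRM (1.99 ± 0.39, limma adjusted p = 0.013). In H2087 MLM the HLA-G groups overlapped (-0.0044 ± 0.65, limma adjusted p = 0.997), and in HCC1954 HLA-G was at 0.20 ± 0.41 in MLM and -0.0041 ± 0.17 in MRM and was not called.

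The LCC minus parental difference was tested between the media in 1 model. None of the 5 members was called, where 10.7% of 12535 genes were called. The term was 0.51 ± 0.28 for HLA-C (limma adjusted p = 0.264). It was 0.35 ± 0.46, 0.35 ± 0.30 and 0.46 ± 0.51 for HLA-B, HLA-E and HLA-F, and -0.14 ± 0.25 for B2M. At an unadjusted p under 0.05 limma counted 0 members, and edgeR and DESeq2 called 0. Without LCC4 of MRM the term of HLA-C was called (0.65, limma adjusted p = 0.0242). A positive term stands for a smaller drop from MRM to MLM in LCC than in parental cells.

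HCC1954 gave another pattern: HLA-B and HLA-F were higher in LCC than in parental cells in both media, while HLA-C, HLA-E and B2M did not pass. HLA-F differed most, at about 3-fold. In MLM 2 of the 5 were called higher, where 17.6% of 15186 genes were called higher, and in MRM 2 were called higher, where 19.2% of 15432 genes were. HLA-B and HLA-F were also higher without overlap in each medium, as 22.7% of genes were in MLM and 25.6% in MRM. The median log2 difference of the 5 was 0.08 in MLM and 0.34 in MRM, against a median within 0.01 of zero over all genes in each. The LCC libraries are of 2 derivatives, so the 4 libraries of a group are not 4 independent derivations.

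HLA-B was at 14775, 12381 and 14113 normalized counts in parental MLM libraries, at 23434 and 25614 in LCC1 and at 18925 and 19955 in LCC2. In MRM it was at 6217, 6383 and 5610 in parental libraries, at 17053 and 9224 in LCC1 and at 19021 and 19140 in LCC2. The LCC libraries were above the parental ones in each medium. HLA-B rose 1.59-fold in MLM (0.67 ± 0.13, limma adjusted p = 0.00678) and 2.55-fold in MRM (1.35 ± 0.26, limma adjusted p = 0.0055). Without parental 3 the MLM difference was 0.69, and without LCC1 2 the MRM difference was 1.60. With the library number as a replicate block, HLA-B in MRM was at 1.30 and did not pass (limma adjusted p = 0.052).

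HLA-F was at 478, 379 and 246 normalized counts in parental MLM libraries, at 1444 and 1662 in LCC1 and at 876 and 882 in LCC2. In MRM it was at 246, 209 and 192 in parental libraries, at 980 and 401 in LCC1 and at 742 and 773 in LCC2. Again no LCC library reached down to a parental one. HLA-F rose 3.28-fold in MLM (1.71 ± 0.31, limma adjusted p = 0.00515) and 3.20-fold in MRM (1.68 ± 0.29, limma adjusted p = 0.00378). Without the libraries that stood apart the differences were 1.45 and 1.94.

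HLA-C did not follow HLA-B. It was at 16047, 13966 and 12872 normalized counts in parental MLM libraries and at 15834, 17458, 13093 and 14046 in the LCC libraries (0.08 ± 0.13, limma adjusted p = 0.673). In MRM parental libraries were at 9008, 9409 and 8163, and LCC libraries at 13150, 6530, 13565 and 13307 (0.34 ± 0.26, limma adjusted p = 0.347). The library LCC1 2, at 6530, was below all parental libraries, whereas the other 3 were above them. Without it HLA-C was called higher (0.59, limma adjusted p = 0.00102). In MLM, without parental 3, the HLA-C difference was 0.0043.

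HLA-E was at 12233, 10815 and 9164 normalized counts in parental MLM libraries, at 12159 and 13226 in LCC1 and at 8092 and 8119 in LCC2. The derivatives lay on opposite sides, LCC1 at the top of the parental range or above it and LCC2 below it (-0.07 ± 0.21, limma adjusted p = 0.815). In MRM parental libraries were at 8072, 8211 and 7557, LCC1 at 9223 and 5267 and LCC2 at 7276 and 7326 (-0.15 ± 0.18, limma adjusted p = 0.526). The 95% interval in MRM ran from -0.56 to 0.25. Without LCC1 2 the MRM difference of HLA-E was -0.0090.

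B2M was at 35409, 28319 and 24060 normalized counts in parental MLM libraries and at 31724, 35799, 23329 and 25023 in LCC libraries, with full overlap (-0.02 ± 0.19, limma adjusted p = 0.952). In MRM it was at 26038, 25948 and 27888 in parental libraries and at 39120, 16675, 36341 and 37594 in LCC libraries. As for HLA-C, LCC1 2 alone was below the parental libraries (0.21 ± 0.30, limma adjusted p = 0.616). Without it B2M was called higher (0.50, limma adjusted p = 0.00148), so 4 of 5 members were then called in MRM.

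**Figure D3:**
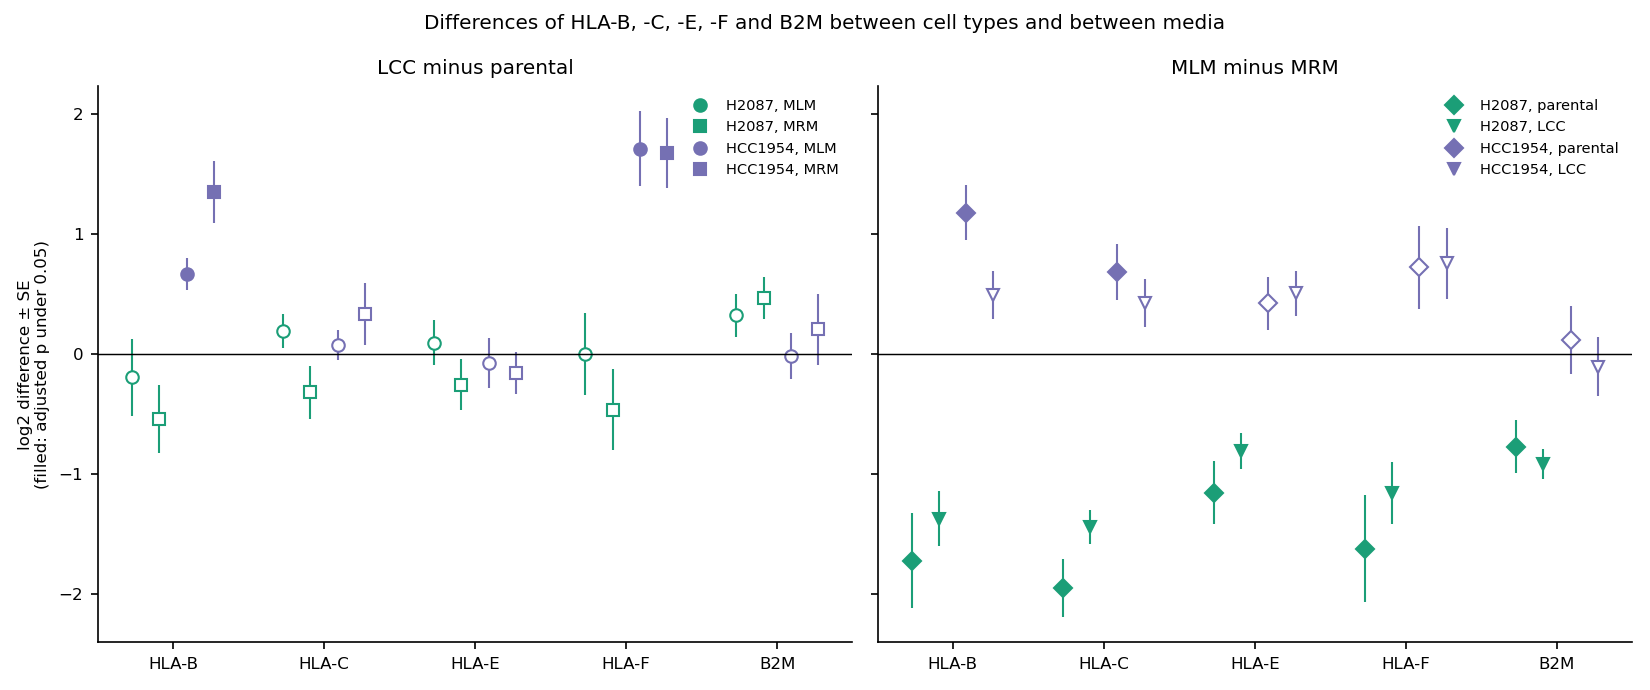
Log2 difference ± SE (limma) of each class I gene and B2M, LCC minus parental by medium (left) and MLM minus MRM by cell type (right), for H2087 and HCC1954. Filled symbols passed an adjusted p under 0.05 and open symbols did not. In H2087 all 5 genes lie below zero between the media, from -1.95 to -0.77, and in HCC1954 HLA-B and HLA-F lie above zero in LCC cells of both media, from 0.67 to 1.71.

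The balance of HLA-B and HLA-C counts differed between LCC and parental cells. HLA-B was 40.7% ± 0.215 (SD, n = 3) of the summed HLA-B and HLA-C counts in parental MRM libraries and 58.1% ± 1.12 (n = 4) in LCC MRM libraries, and LCC1 2, though lowest in level, was at 58.5% beside 56.5% to 59.0% in the other 3. In MLM it was 49.1% ± 2.83 in parental and 59.2% ± 0.434 in LCC libraries. These shares are descriptions without a test. Heavy chain counts per B2M count were 0.870 ± 0.0860 in parental and 1.13 ± 0.110 in LCC libraries of MRM, and 1.36 ± 0.144 and 1.69 ± 0.0602 in MLM.

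Of 15 peptide loading genes, 12 were not called between LCC and parental HCC1954 cells in MLM (median log2 difference -0.21). In MRM 9 of 15 were lower in LCC cells (median -0.54). Many genes differed in this comparison: 7415 of 15432 in MRM and 7088 of 15186 in MLM had an unadjusted limma p under 0.05. The share of all genes called lower is not given here, so the counts of lower genes in these lists are not set against it. The trimming peptidases ERAP2 (-1.49 ± 0.17) and ERAP1 (-0.87 ± 0.15), the immunoproteasome subunit PSMB10 (-1.20 ± 0.32), the proteasome activator PSME1 (-0.77 ± 0.19) and TAP2 (-0.49 ± 0.11) fell. In MLM 1 was higher, the immunoproteasome subunit PSMB8 (0.56 ± 0.11), and 2 were lower, ERAP2 (-1.14 ± 0.37) and CALR (-0.51 ± 0.16). TAP1 was at 0.47 ± 0.25 in MLM and 0.15 ± 0.17 in MRM and did not pass.

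Of the 18 regulators, 3 were higher and 4 lower in MLM, and 1 was higher and 7 lower in MRM. IRF1 fell in MRM (-1.23 ± 0.21, limma adjusted p = 0.00382) and was at -0.38 ± 0.41 in MLM. NLRC5 was at 0.92 ± 0.45 and 0.34 ± 0.34 and did not pass. RFXAP, a subunit of the RFX complex, rose in MLM (0.68 ± 0.22) and in MRM (0.75 ± 0.25). Of the interferon stimulated genes, 3 of 40 were higher in MLM (median 0.75) and 2 of 39 higher and 3 lower in MRM (median -0.10). Of 11 genes of interferon receptors and their kinases, 4 were lower in MLM and 5 in MRM. IFNAR2 fell in both media (-1.10 ± 0.26 and -0.98 ± 0.21), as did the kinase JAK2 (-0.73 ± 0.12 and -0.73 ± 0.13).

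Class II genes, whose products present peptides to CD4 T cells, did not follow class I. In MLM 5 of 11 were lower in LCC cells (median -0.95), with HLA-DRB1 (-1.98 ± 0.27) and HLA-DQB1 (-1.47 ± 0.22) among them, and in MRM the median was 0.07. The 10 fibroblast markers summed to 1657 to 8008 normalized counts in LCC libraries and to 849 to 1091 in parental libraries, with ACTA2 higher by 4.57 ± 1.12 in MLM and 3.96 ± 0.30 in MRM. Only 3 of the 10 passed the filter on low values, and 2 of these were called higher in each medium. The median log2 difference of the 3 was 0.57 in MLM and 0.67 in MRM. Leukocyte markers summed to 224 to 480 in LCC and 121 to 340 in parental libraries, with 1 of 12 at 0 in every library. Of those tested, 2 of 3 were called higher in LCC cells in MRM and 0 of 4 in MLM. The part of either list in these HCC1954 differences was not tested.

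Between the media the 4 HLA genes of HCC1954 lay on the other side of zero from those of H2087, which was not tested across the lines. In parental cells HLA-B and HLA-C were called higher in MLM than in MRM, 2 of 5 members where 13.4% of 15397 genes were called higher. HLA-B rose 2.26-fold (1.18 ± 0.23, limma adjusted p = 0.00339). HLA-C (0.69 ± 0.23, limma adjusted p = 0.0488) passed narrowly. Leaving out any 1 of the 6 parental libraries left HLA-C short of the threshold (limma adjusted p = 0.0622 to 0.149), as did a replicate block (limma adjusted p = 0.055), and HLA-B alone was then called. HLA-E (0.43 ± 0.22, limma adjusted p = 0.18) and HLA-F (0.72 ± 0.34, limma adjusted p = 0.143) did not pass, although each MLM library was above every MRM library. In all, 4 of 5 members were higher without overlap, as 31.5% of tested genes were. Without parental 3 of MLM and LCC1 2 of MRM, HLA-F was also called (0.98, limma adjusted p = 0.0217). B2M was at 0.12 ± 0.28.

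In HCC1954 LCC cells 0 of 5 members were called between the media by limma, where 23% of 15397 genes were called, and edgeR called 0 and DESeq2 2, HLA-E and HLA-F (DESeq2 adjusted p = 0.0425 and 0.0471). At an unadjusted p under 0.05 limma counted 3. The log2 differences of MLM from MRM were 0.50 ± 0.20 for HLA-B, 0.43 ± 0.20 for HLA-C, 0.51 ± 0.19 for HLA-E, 0.76 ± 0.30 for HLA-F and -0.11 ± 0.25 for B2M. The groups overlapped for each of the 5. Without LCC1 2 of MRM the differences were 0.25 for HLA-B, 0.17 for HLA-C, 0.36 for HLA-E and 0.50 for HLA-F. B2M was then at -0.40, and limma again called none of them. The library pairs were uneven. For HLA-B the pair of LCC1 2 differed by 1.47 on the log2 scale, while LCC2 1 was at -0.01. For HLA-E and HLA-F all 4 same-named pairs were higher in MLM, by 0.15 to 1.33 and by 0.19 to 2.05 on the log2 scale. For HLA-B and HLA-C 3 of 4 pairs were higher, and for B2M 3 of 4 were lower. With LCC1 and LCC2 as separate groups of the model, HLA-B, HLA-E and HLA-F were called (limma adjusted p = 0.0178, 0.0136 and 0.0296). HLA-E was called without LCC2 1 of MLM (limma adjusted p = 0.0476), LCC2 2 of MLM (0.0483) or LCC1 1 of MRM (0.032), and HLA-F without the last (0.93, limma adjusted p = 0.0459).

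The LCC effect did not differ between the media of HCC1954 past the threshold for any member, where 0.156% of genes were called. The term was -0.68 ± 0.30 for HLA-B (limma adjusted p = 0.472) and between -0.26 and 0.08 for the other 4. At an unadjusted p under 0.05 limma counted 1 member, HLA-B, and edgeR and DESeq2 called 0. Without LCC1 2 of MRM the HLA-B term was -0.93 and was called (limma adjusted p = 0.0412), and without parental 3 of MLM as well it was -0.91 (limma adjusted p = 0.0387).

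Of the peptide loading genes of HCC1954, TAP1 was the 1 of 15 that passed between the media in LCC cells (0.93 ± 0.21, limma adjusted p = 0.00826). In parental cells TAP1 was at 0.61 ± 0.25 and TAP2 at 0.02 ± 0.17, and neither passed. HLA-H and HLA-L, class I pseudogenes, were in the HCC1954 tables. HLA-H was at 304, 298 and 202 normalized counts in parental MRM libraries and at 1195, 1093 and 991 in parental MLM libraries. HLA-H was higher in MLM in parental (2.04 ± 0.32) and LCC cells (1.54 ± 0.28), and HLA-L likewise (1.81 ± 0.24 and 1.76 ± 0.21). HLA-H was also higher in LCC than parental cells in MLM (0.68 ± 0.12) and MRM (1.18 ± 0.38, limma adjusted p = 0.0423). In MRM the HLA-H groups overlapped, with LCC1 2 at 302 and parental 1 at 304 normalized counts. HLA-L (0.32 ± 0.14 in MLM and 0.37 ± 0.28 in MRM) did not pass between LCC and parental cells. Nor did HLA-J, another class I pseudogene (0.61 ± 0.21 and 0.71 ± 0.24).

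LCC1 and LCC2 of HCC1954 were compared over both media. None of the 5 members was called by limma, edgeR or DESeq2, and 0 had an unadjusted p under 0.05, where limma called 53.3% of 15397 genes. The log2 differences of LCC2 from LCC1 ran from -0.29 ± 0.14 for HLA-E (limma adjusted p = 0.111) to 0.14 ± 0.15 for HLA-B (limma adjusted p = 0.468). These values moved with single libraries. Without LCC1 2 of MRM, LCC2 had lower HLA-E (-0.49, limma adjusted p = 0.000619) and HLA-F (-0.59, limma adjusted p = 0.0198). Leaving out parental 3 of MLM as well left the differences of B2M (-0.28) and HLA-C (-0.13) as they were without LCC1 2 alone. Parental 3 is outside this comparison and enters only the spread that the groups of the model share. Without LCC1 1 of MRM instead, HLA-B (0.36), HLA-C (0.37) and B2M (0.33) were called higher in LCC2.

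Interferon stimulated genes separated the derivatives. Of 39 tested, 31 were lower in LCC2 than in LCC1 (median -1.78), with ISG15 (-3.19 ± 0.48) and OAS2 (-3.45 ± 0.64), both antiviral effectors, among them. NLRC5 (-1.25 ± 0.19, limma adjusted p = 0.000224) and IRF1 (-0.89 ± 0.17) fell as well, and 8 of 15 peptide loading genes were lower, TAP1 (-0.52 ± 0.14) and PSMB9 (-0.59 ± 0.20) among them. Over all genes tested 53.3% were called in either direction. The share called lower is not given here, so the counts of lower genes are not set against it. The median level of the 39 genes, on a log2 scale centred on the mean of the 14 libraries, was highest in LCC1 of MLM, up to 2.05, and stood at 0.02 and -0.41 in LCC2 of MLM. In MRM it was 1.31 and -0.59 in the LCC1 libraries and -1.21 and -1.17 in those of LCC2. On the same scale the median of the 5 members was 0.47 and 0.59 in LCC1 of MLM, 0.10 and 0.21 in LCC2 of MLM, 0.33 and -0.74 in LCC1 of MRM, and 0.34 and 0.38 in LCC2 of MRM. LCC2 of MRM thus had the lowest interferon stimulated genes of the line and a class I median above the mean. Of the 5 members, only HLA-E lay below the parental MRM libraries in LCC2 of MRM, at 7276 and 7326 normalized counts beside 7557 to 8211. LCC1 2 of MRM was low in both lists, and the part of the interferon stimulated genes in the class I values was not tested.

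**Figure D4:**
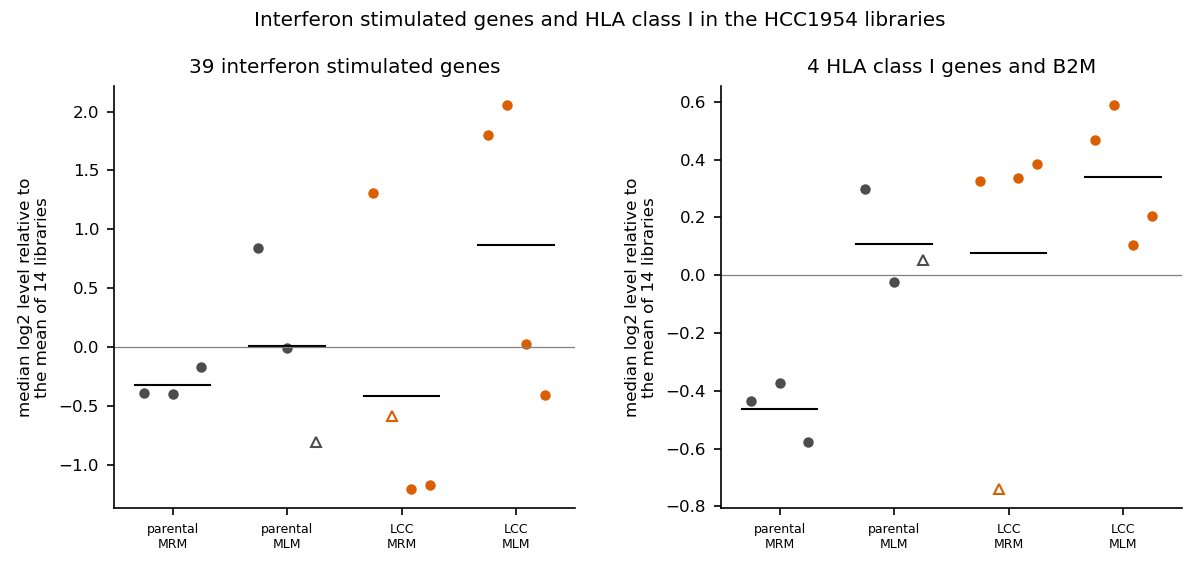
Median log2 level of 39 interferon stimulated genes (left) and of HLA-B, HLA-C, HLA-E, HLA-F and B2M (right) in each HCC1954 library, each gene centred on its mean over 14 libraries. Points are libraries (LCC1 to the left and LCC2 to the right within the LCC groups), lines are group means, and open triangles are parental 3 of MLM and LCC1 2 of MRM. LCC2 libraries of MRM are lowest for the interferon list, at -1.21 and -1.17, and above the mean for the class I median, at 0.34 and 0.38.

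The lines were normalized separately, so their levels are set side by side as CPM (counts scaled to library totals), without a test. HLA-B in parental MLM cells was at 189 ± 0.604 CPM (SD, n = 2) in H2087 and at 424 ± 37.8 CPM (n = 3) in HCC1954, and in parental MRM cells at 596 ± 45.3 and 196 ± 13.1, so the line with the higher mean was not the same in both media. HLA-C was at 444 ± 8.10 and 287 ± 20.7 CPM in parental MRM cells and at 120 ± 4.75 and 441 ± 49.3 in parental MLM cells of H2087 and HCC1954. HLA-E was at 171 ± 8.53 and 257 ± 11.1 in parental MRM cells and at 80.2 ± 3.25 and 331 ± 47.1 in parental MLM cells. In H2087 the order of group means, from the highest, was parental MRM, LCC MRM, LCC MLM and parental MLM for HLA-C, HLA-E and HLA-F, and the MLM groups overlapped for each of these. For all 4 heavy chains the MRM groups of that line overlapped each other, and for B2M the LCC MRM group stood above the parental one without overlap. In HCC1954 HLA-B and HLA-F were ordered LCC MLM, LCC MRM, parental MLM, parental MRM, with overlap between LCC MRM and parental MLM for each, through LCC1 2.

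Across the libraries of a line the members moved together to different degrees. In the 16 H2087 libraries each member correlated with the mean of the other 4 at Pearson r = 0.853 (B2M) to 0.970 (HLA-B), on log2 values. In the 14 HCC1954 libraries r was 0.885 for HLA-B, 0.874 for HLA-C, 0.790 for HLA-F, 0.568 for B2M and 0.546 for HLA-E. These libraries share media, derivatives and depth differences, so the values are descriptions. The genes most like the mean of the 5 in H2087, of those reported here, were TAP1 (r = 0.968), LEMD2 (0.962), PTPRK (0.961), TAPBP (0.961), MR1 (0.957) and RHBDD2 (0.955), out of 10571 genes. In HCC1954 they were B4GALT1 (0.964), HCP5 (0.947), SEL1L3 (0.944), DDIT4 (0.936), TSC1 (0.924) and TNFSF9 (0.924), out of 11696 genes. With B2M alone in H2087 the closest was ADAM10 (0.977), and with HLA-E alone in HCC1954 it was SH3TC1 (0.949).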

How the data were processed

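The deposited tables hold normalized counts, a signal that is the read count of a gene divided by a size factor of its library, per the labels and the values: multiplied back, 100% of the values came out whole within 0.01 reads. The size factors matched DESeq2's median of ratios taken over both media of a line (largest relative difference 2.51e-10 in H2087 and 2.11e-10 in HCC1954), so the media of a line are compared on 1 scale and the lines are not. Bowtie2 2.2.4, HTSeq 0.6.1p1, DESeq2 1.8.1 and the build hg19 (GRCh37) are named, without role or order, in the submitters' processing notes. How reads matching several loci were counted, and whether strand was used, is not given in the sources used here.

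Of the 43 samples, 31 were RNA and 12 were chromatin samples, which were not analysed here. The 30 RNA libraries with a column in the tables were used, and no other column of values was left unused. One parental H2087 library of MLM was not analysed here.

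Values were tested as log2 of the deposited value plus a pseudocount of 1, over genes with a mean of 10 or more, with limma 3.58.1 (trend) in R 4.3.3. P-values were adjusted over all genes tested by Benjamini-Hochberg, with a threshold of 0.05. LCC and parental cells were compared within a medium, the media and the interaction in 1 model of the 4 groups of a line, and LCC2 with LCC1 in a model with both media. Alternatives were edgeR 4.0.16 and DESeq2 1.42.0 on recovered reads, a pseudocount of 8, no filter, equal library totals, a replicate block, LCC1 and LCC2 as separate groups, the HCC1954 results without parental 3 of MLM and LCC1 2 of MRM, and each library left out in turn. The fits were tested on simulated data. In H2087 the names pair LCC libraries across media because each names a derivative. In HCC1954 only the derivative is shared, and nothing in the labels says that the last number pairs libraries. Deviations from group means of same-named libraries correlated at 0.411 to 0.756 in H2087 LCC and 0.507 to 0.698 in HCC1954 LCC libraries. HCC1954 LCC1 2 of MLM correlated best with an MRM library of another name.

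The members and gene lists were chosen with earlier results of these data known. Results of some genes of the group and its lists are not reported here, and counts, medians, ratios and similarities are over the genes that are. Named genes were the members, a fixed set of pathway genes (TAP1, TAP2, TAPBP, PSMB9, NLRC5 and IRF1) and the most changed called genes of each list. Similar genes were the 6 with the highest Pearson correlation among genes with a mean of 100 or more. The effect of depth on the members was not tested.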

Additional observations from a re-analysis of the deposited data

Results flagged for a closer look

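In groups of 4 or more libraries, 8 of the 20 tested sets of values held 1 library far from the others by Dixon's criterion, where chance gives about 1 in 20. They come from 3 libraries, so they are not separate events. In H2087 LCC cells of MRM, LCC4 was the highest library for B2M (96301, others 62203 to 70264), HLA-B (20776, others 8882 to 12313), HLA-C (16390, others 8685 to 10067), HLA-E (6377, others 3329 to 4285) and HLA-F (1293, others 464 to 745). In H2087 LCC cells of MLM, LCC6 was the lowest for B2M (26089, others 37151 to 42922). In HCC1954 LCC cells of MRM, LCC1 2 was the lowest for B2M (16675, others 36341 to 39120) and HLA-C (6530, others 13150 to 13565).

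The difference between media had opposite directions in the 2 lines, in every pair of libraries of each, for 4 genes in parental cells. In parental cells the log2 difference of MLM from MRM was 1.18 in HCC1954 and -1.72 in H2087 for HLA-B, 0.69 and -1.95 for HLA-C, 0.43 and -1.16 for HLA-E, and 0.72 and -1.62 for HLA-F. The difference between the lines was not tested. Medium and depth moved together in both lines, in opposite directions, and their parts cannot be told apart.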

How the results depend on the processing

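The counts of called members kept within 1.5 times their value under the other settings except as follows, and the cause was not tested. DESeq2 called 1 member instead of 0 in H2087 LCC against parental cells in MRM and 2 instead of 0 between the media in HCC1954 LCC cells. Equal library totals, no filter and the replicate block each gave 1 instead of 2 between the media in HCC1954 parental cells, where the block gave HLA-C an adjusted p of 0.055 (limma) and same-numbered deviations correlated at 0.0183 to 0.116. LCC1 and LCC2 as separate groups gave 3 between the media in HCC1954 LCC cells. Without the pair of HCC1954 libraries that stood apart, the counts were 4 for LCC against parental cells in MRM and 1 in the interaction. The count in LCC2 against LCC1 moved as well, with a lone LCC1 library left in MRM and parental 3 entering only the shared spread. LCC and parental HCC1954 libraries share only a number, and the replicate block by that number left 1 of 2 in MRM, HLA-F. The replicate block moved no other count by over 1.5 times.

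Leaving out 1 library gave 0 to 1 in the interaction of either line, 0 to 1 and 0 to 4 in H2087 LCC against parental cells in MLM and MRM, 2 to 2 and 2 to 4 in HCC1954, 0 to 3 in LCC2 against LCC1, 5 to 5 and 3 to 5 between the media in H2087 LCC and parental cells, and 0 to 2 and 1 to 1 in HCC1954. Directions changed only for values that were not called as reported. Equal totals gave -0.060 for HLA-F in H2087 MLM, and 0.042 for HLA-E and 0.10 for B2M in HCC1954 MLM, LCC against parental. In the HCC1954 interaction HLA-F was -0.018 by edgeR, -0.019 by DESeq2 and -0.49 without the pair of libraries, and HLA-E -0.17 without them. In LCC2 against LCC1, B2M was -0.029 by edgeR, -0.037 by DESeq2 and -0.28 without the pair, with HLA-B at -0.086 and HLA-C at -0.13. With 1 library out, HLA-F in H2087 MLM LCC against parental ran from -0.10 to 0.15. In HCC1954 MLM, HLA-E ran from -0.20 to 0.036 and B2M from -0.15 to 0.13. B2M between the media ran from -0.028 to 0.25 in HCC1954 parental and from -0.40 to 0.0094 in LCC cells. In the HCC1954 interaction HLA-E ran from -0.064 to 0.21 and HLA-F from -0.23 to 0.25. In LCC2 against LCC1, HLA-B ran from -0.086 to 0.36, HLA-C from -0.13 to 0.37, HLA-F from -0.59 to 0.050 and B2M from -0.28 to 0.33.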
